A study of Homo sapiens with 35 samples.

Results

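HOX genes were the 39 genes, of 60665 in the count table, whose symbol is HOX, a cluster letter from A to D and a number. They comprised 11 HOXA, 10 HOXB, 9 HOXC and 9 HOXD genes. On the hg38 build, the HOXA members lay on the minus strand of chromosome 7 from 27092993 to 27200091, and the HOXB members on the minus strand of chromosome 17 from 48528526 to 48728750. The HOXC members lay on the plus strand of chromosome 12 from 53938831 to 54056030, and the HOXD members on the plus strand of chromosome 2 from 176092721 to 176190907.

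HOX genes encode homeodomain transcription factors that give cells a position along the body axis, and they often bind DNA together with PBX and MEIS proteins. Within a cluster the genes stand in the order in which they are used from head to tail, and genes of the same number in different clusters are paralogs. Polycomb complexes keep unused HOX genes silent, MLL (trithorax) complexes keep used ones active, and retinoic acid acting through its receptors is a classic inducer of the low-numbered end.

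Total RNA of HEK293T, an established human embryonic kidney line, was sequenced in 35 libraries after depletion of ribosomal RNA. The study asked how INTS13, a subunit of the Integrator complex that cleaves nascent RNA, and transcription factors that interact with Integrator affect gene expression. All cells had received a siPOOL, which is a mixture of many siRNAs that target 1 gene, at 5 nM for 72 h, and the controls had received the control siPOOL. The first set, numbered 1 and 2 in the labels, held TSPYL2, ZEB1, ZNF608, ZNF609 and ZNF687 depletions with 2 libraries each, and 3 control libraries. The second set, numbered 3 and 4, held INTS13, HDGF and ZNF655 depletions and INTS13 and HDGF depletions with 24 h of glucose starvation, with 2 libraries each, and 4 starved and 4 unstarved control libraries. The third set, also numbered 3 and 4, held 2 libraries of ZMYND8 depletion and 2 controls labelled for it. No label named the control of the ZNF655 depletion. It was placed in the second set by choice and set against the 4 unstarved controls there. The controls labelled for ZMYND8 share its numbers too and served as an alternative. Nothing in the labels said that libraries came from separate passages or days, and the spread behind each p-value may therefore be technical.

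The libraries held 16.8 to 50.8 M counts, with a median of 25.6 M (M, 1000000 counts), and HOX genes took 0.0432% to 0.104% of them. The 9 targeted genes stood at 8.36% to 56.1% of their controls. Of 11 genes that mark HEK293T, 10 averaged at least 1 CPM, that is 1 count in 1000000, in control cells, and the exception was PAX2, a kidney transcription factor, at 0.822 CPM. Summed CPM of these markers was 750 to 1181, and VIM and LIN28B alone averaged 611 and 212 CPM in control cells. Summed CPM was 2.79 to 9.92 for 7 fibroblast markers, 1.16 to 3.98 for 7 blood cell markers and 0.111 to 1.13 for 5 endothelial markers. The T-cell gene CD3E was at 0 in every library. In bulk RNA, fewer cells expressing a gene and less RNA per cell cannot be told apart.

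In unstarved control cells all 4 clusters were transcribed, and the genes with high numbers, which pattern the rear of the body, held most of the signal. Of the 39 members, 34 averaged at least 1 CPM over the 9 control libraries and 19 at least 10 CPM. In HOXA, the 4 members of groups 9 to 13 summed to 203 CPM and the 7 of groups 1 to 8 to 105 CPM. In HOXD the 5 members of groups 9 to 13 summed to 122 CPM and the 4 others to 17.9 CPM. The balance was closer in HOXB, at 139.7 CPM for 2 members against 108 CPM for 8, and in HOXC, at 55 CPM for 5 members against 34.6 CPM for 4.

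Levels per kilobase of exon, which allow genes to be compared, were highest for HOXB9, a gene of thoracic patterning. Its lowest, median and highest control libraries had 87.0, 130 and 134 CPM, and its level was 47.0 ± 5.79 CPM per kb (SD, n = 9). The next levels per kb were 31.9 ± 9.52 for HOXA5, which acts in lung development in mice, and 31.3 ± 2.69 for HOXD13, the gene of digit formation mutated in human synpolydactyly. HOXA10 and HOXA9, posterior genes also known from leukaemia, had 19.4 ± 2.78 and 19.2 ± 5.29 CPM per kb. The second HOXB gene was HOXB6 at 14.3 ± 3.58 CPM per kb. In HOXC the leading genes were HOXC9 at 12.1 ± 2.69 and HOXC4 at 6.86 ± 0.733 CPM per kb, and in HOXD the second was HOXD10, a lumbar patterning gene, at 10.4 ± 3.02. In CPM, HOXD10 had 11.8, 27.5 and 34.7 in its lowest, median and highest control libraries, the lowest being in the first set.

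Most steps in this order were within the spread. Only 4 of the 38 pairs of neighbours had ranges that did not overlap across the 9 libraries, namely HOXD13 above HOXA10, HOXB7 above HOXA13, HOXA2 above HOXD1, and HOXC12 above HOXB1. The 5 members under 1 CPM were HOXD1 at 0.331 ± 0.182, HOXC5 at 0.266 ± 0.160, HOXD12 at 0.235 ± 0.113, HOXC12 at 0.227 ± 0.0968 and HOXB1 at 0.00796 ± 0.0159 CPM (SD, n = 9). HOXB1, a hindbrain gene, had 3 reads over all 35 libraries, was removed by the filter on low counts and was tested nowhere. The remaining 38 members were tested.

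**Figure D1:**
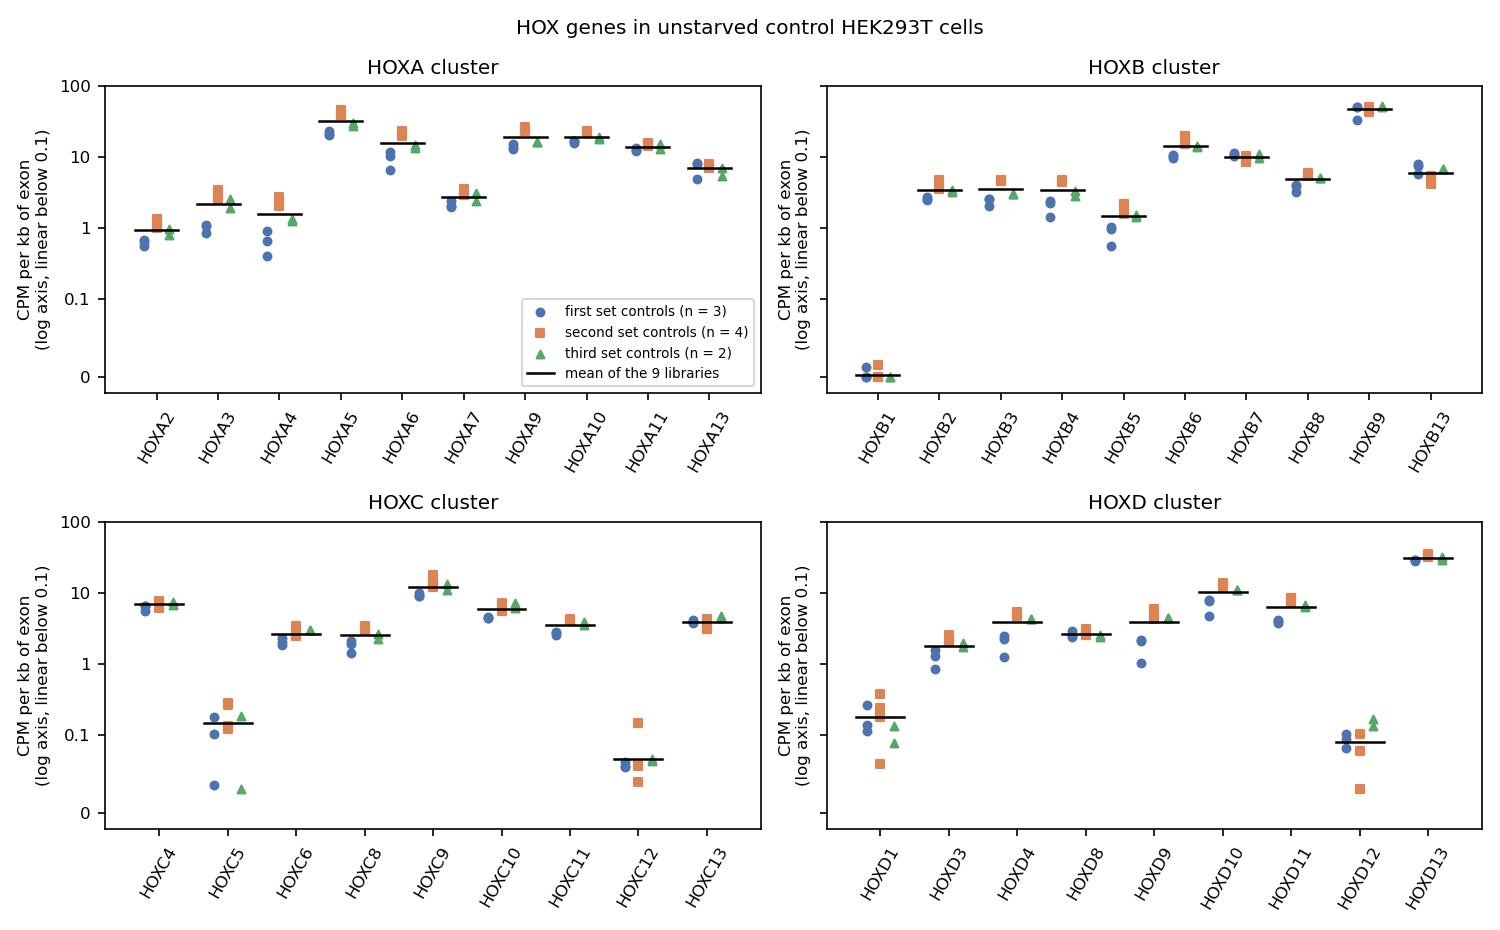
CPM per kilobase of exon in the 9 unstarved control libraries, by gene along each cluster, for all members but 1, with points by set and a bar at the mean of the 9. HOXB9 stands highest at 47.0 CPM per kb, and HOXB1, HOXC5, HOXC12, HOXD1 and HOXD12 lie far below the rest.

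Neighbouring HOX genes share exon sequence, which bears on what a count can separate. In GENCODE release 29, in which 16 of the 39 members have the same span as in the count table, so that it is not shown to be the release counted, 18 of the 39 members shared exon bases with another gene on the same strand and 19 with a gene on the opposite strand. The widest overlaps on the same strand were those of HOXD4 and HOXD3 with the gene AC009336.2, at 80.5% and 62.2% of their exon bases, and HOXD11 shared 21.4% with HOXD10. On the opposite strand, HOXA7 shared 62.5% of its exon bases with HOXA-AS3 and HOXA11 31.1% with HOXA11-AS. The library kit keeps the strand, but whether counting used it is not given in the sources used here, so the values of such genes may include reads of their neighbours.

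The 3 sets differed in HOX levels before any depletion. Controls of the second set lay entirely above those of the first for 26 of the 39 members, where 24.6% of the 19275 tested genes did so. They lay entirely below for 2 members, HOXB7 and HOXB13, a gene of the prostate and tail end, where 24.5% of tested genes did so. The difference was widest for HOXA4, at 3.5, 4.74, 3.86 and 4.36 CPM in the second set and 0.681, 1.55 and 1.12 CPM in the first, or 3.68-fold. HOXA3 and HOXD9 were each 3.01-fold higher in the second set, and 8 members were at least 2-fold higher. By contrast HOXB9 averaged 121 ± 8.87 CPM in the second set (n = 4) and 116 ± 24.8 in the first (n = 3). What separates the sets besides their numbers is not given in the labels, so set and its conditions cannot be told apart, and each depletion was set against controls of its own set.

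Within the first set the libraries numbered 1 and 2 also stood apart for a few members. HOXA13, the paralog of HOXD13 that acts in limb and urogenital development, had 18.5 to 30.4 CPM in the 6 libraries numbered 1 and 36.0 to 44.8 CPM in the 7 numbered 2. HOXA6 likewise did not overlap, and in all 3 of the 39 members were entirely lower in number 1 and 0 entirely higher, against 4.05% and 4.07% of tested genes. HOXB9 was 74.9 and 87.0 CPM in the number 1 libraries of ZEB1 depletion and control, and at least 124 CPM in their number 2 libraries.

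**Figure D2:**
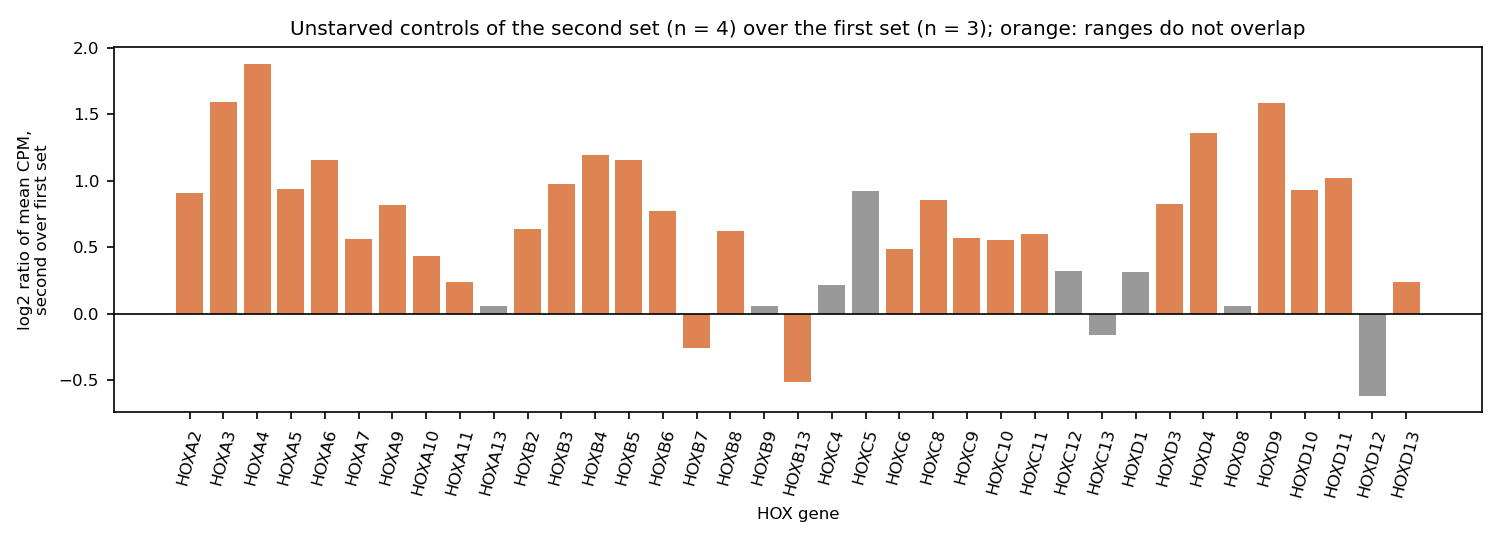
Log2 ratio of mean CPM in unstarved controls of the second set (n = 4) over the first set (n = 3) for the tested members but 1, with orange bars where the ranges do not overlap. The tallest bar is HOXA4, 3.68-fold higher in the second set, and HOXB7 and HOXB13 are the orange bars below 0.

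Glucose starvation of control cells gave the widest change in HOX genes, and it went one way. Of the 38 tested members, 14 fell and 0 rose, by edgeR's quasi-likelihood test at an adjusted p under 0.05. Over all tested genes, 16.8% were called, 8.05% as lower and 8.77% as higher. The median log2 fold change was -0.27 over HOX genes and 0.01 over all genes, and 33 of the 38 members had a value below 0. Among the genes that fell were HOXA7, HOXA9, HOXA10 and HOXA11, HOXB2, HOXB4 and HOXB6, HOXC4, HOXC9, HOXC10 and HOXC11, and HOXD11 and HOXD13. The 14 comprised 8 of 16 members of groups 9 to 13 and 6 of 22 of groups 1 to 8, a difference that was not tested.

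HOXA10 had 57.6, 58.0, 59.7 and 56.1 CPM in starved control cells and 81.9, 85.0, 82.0 and 80.8 CPM in unstarved ones. The groups were far apart and each was tight. Its log2 fold change was -0.51 ± 0.06 (SE; edgeR, adjusted p = 7.06e-07). HOXD13 had 55.2, 56.9, 59.9 and 57.9 CPM in starved control cells and 83.1, 77.7, 79.8 and 84.8 CPM in unstarved ones, a log2 fold change of -0.50 ± 0.06 (edgeR, adjusted p = 4.22e-06). Both genes thus stood at 70.2% and 70.7% of the unstarved level. HOXA9 had 50.2, 48.0, 49.6 and 44.8 CPM in starved control cells, against 73.6, 74.5, 79.7 and 70.7 CPM in unstarved ones (log2 fold change -0.63 ± 0.09; edgeR, adjusted p = 1.37e-05). HOXA11, a gene of forearm and kidney development in mice, had 26.3, 27.6, 26.9 and 27.1 CPM in starved control cells, against 41.4, 38.9, 37.6 and 41.5 CPM in unstarved ones (log2 fold change -0.56 ± 0.09; edgeR, adjusted p = 4.96e-05).

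The steepest called change was in a gene of the head end of its cluster. HOXB2, a hindbrain gene, had 4.32, 5.04, 5.54 and 4.67 CPM in starved control cells and 11.1, 8.31, 8.64 and 9.16 CPM in unstarved ones, a log2 fold change of -0.92 ± 0.11 (edgeR, adjusted p = 3.69e-06). Its highest starved library lay below the lowest unstarved one. HOXC11 had 9.46, 8.26, 8.49 and 8.49 CPM in starved control cells, against 14, 12.9, 13.1 and 13.5 CPM in unstarved ones (log2 fold change -0.62 ± 0.09; edgeR, adjusted p = 2.86e-05). HOXC9, which acts in thoracic motor neurons in mice, had 16.9, 14.8, 18.5 and 14.7 CPM in starved control cells, against 29.3, 21.8, 19.9 and 21.9 CPM in unstarved ones (log2 fold change -0.52 ± 0.11; edgeR, adjusted p = 0.00230).

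The other 6 genes that fell had log2 fold changes between -0.62 for HOXB4, known in blood stem cells, and -0.31 for HOXC4. HOXB4 had 5.91, 5.93, 5.91 and 6.25 CPM in starved control cells and 8.99, 9.29, 9.38 and 9.12 CPM in unstarved ones. HOXB6 had 36.3, 35.4, 36.1 and 34.4 CPM in starved control cells and 50.6, 42.3, 40.1 and 49.3 CPM in unstarved ones. HOXD11 had 12, 13.2, 14.2 and 13.9 CPM in starved control cells and 17.7, 15.3, 16.5 and 18.0 CPM in unstarved ones. None of the 3 overlapped between the groups. HOXC10, of lumbar patterning, had 12.7, 11.2, 11.7 and 12.5 CPM in starved control cells and 16.4, 15.9, 13.1 and 17.3 CPM in unstarved ones. HOXC4 had 15.6, 15.2, 16.5 and 17.1 CPM in starved control cells and 21.2, 17.1, 20.8 and 20.7 CPM in unstarved ones. HOXA7 had 6.82, 6.06, 5.35 and 4.90 CPM in starved control cells and 8.45, 7.10, 7.69 and 6.98 CPM in unstarved ones. In the last 3 the groups came close to touching, and the HOXA7 call had the highest adjusted p of the 14, at 0.0455 by edgeR.

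Some of the strongest HOX genes did not pass the test. HOXB9 averaged 115 ± 8.01 CPM in starved control cells and 121 ± 8.87 in unstarved ones, a log2 fold change of -0.07 ± 0.12 (SD of CPM, n = 4 each; edgeR, adjusted p = 0.739). HOXA5 averaged 65.1 ± 4.96 CPM in starved control cells and 71.0 ± 4.99 in unstarved ones, and HOXA13 averaged 33.5 ± 3.08 CPM in starved and 36.9 ± 2.35 CPM in unstarved control cells. In all, the 4 starved libraries lay entirely below the 4 unstarved ones for 18 of 38 members and entirely above for 0, where 15.2% and 15% of tested genes did. With each library left out in turn, 11 to 13 HOX genes were called, and HOXA7 kept its call in 1 of 8 such fits and HOXC4 in 3 of 8. The share of all tested genes called in those fits is not given here. With controls of a shared number summed, which leaves 2 libraries a group, 9 were called. There 436 of 19499 tested genes were called higher and 424 lower, against 1691 and 1552 of 19275 with the controls kept apart.

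**Figure D3:**
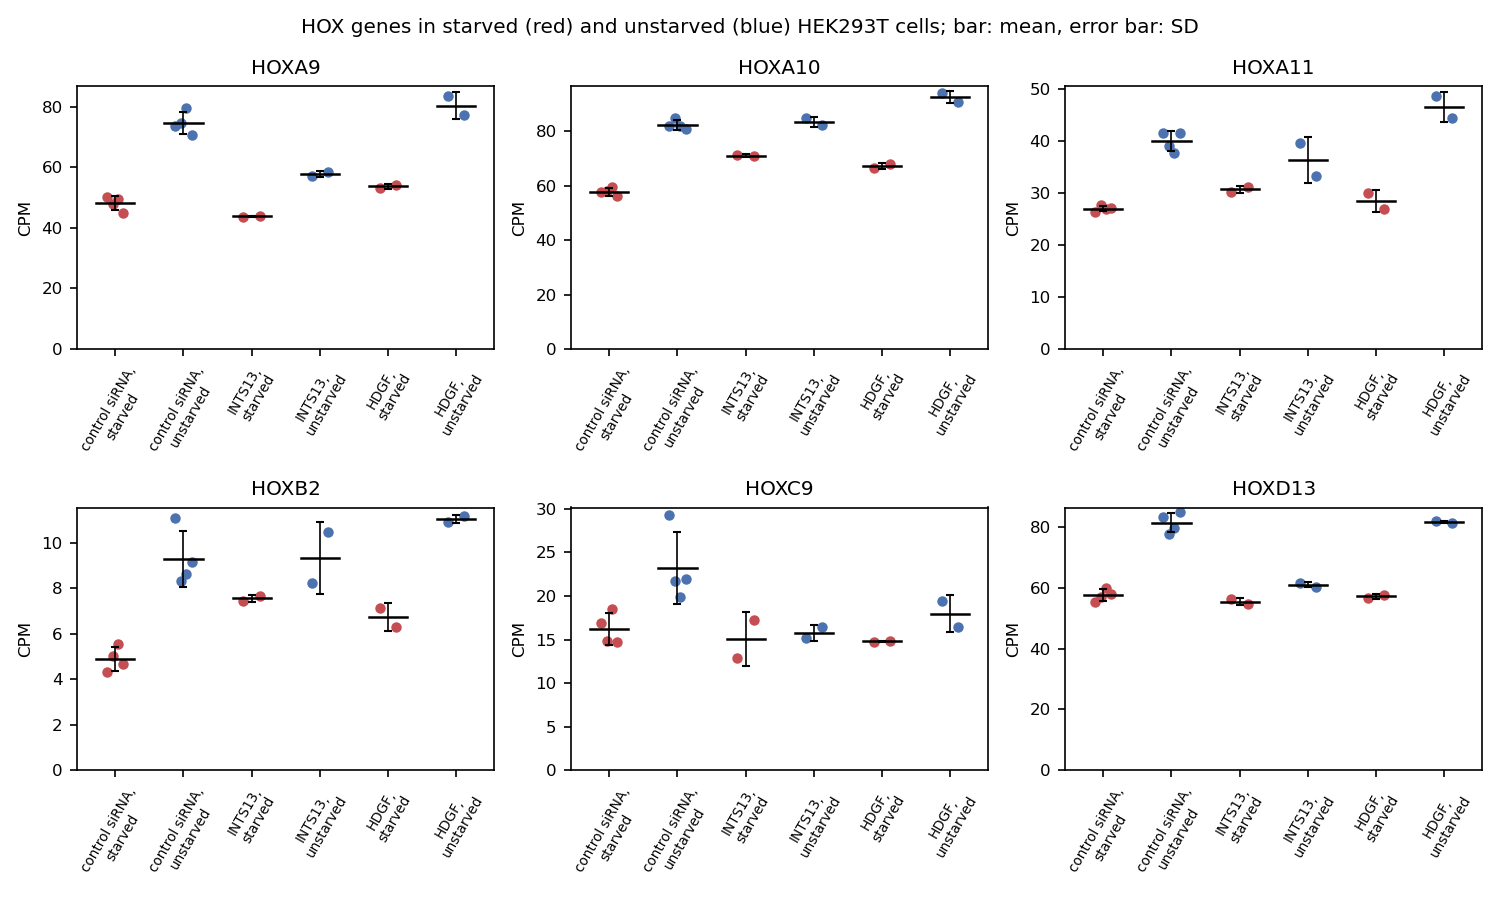
CPM per library for 6 HOX genes in starved (red) and unstarved (blue) cells with the control, INTS13 or HDGF siPOOL, with mean and SD. Starved control libraries lie below all unstarved control libraries in each of the 6 panels.

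Promoter sequence is shown for the genes that fell under starvation in control and again in HDGF-depleted cells (below), where a window was held, since these moved together. RefSeq windows on GRCh38.p14 were matched for 20 of the 39 members, and the 250 bases before the start that RefSeq gives were used. That start lay inside the gene as the count table spans it for some members, by 9643 bases for HOXA9, 3064 for HOXD11 and 400 for HOXA10, and it was the same as in the count table for HOXA11, HOXD13, HOXA13 and HOXB1. Capitals mark CG dinucleotides, the sites of DNA methylation, which are dense in HOX promoters.
HOXA9, chr7:27165538-27165787, minus strand: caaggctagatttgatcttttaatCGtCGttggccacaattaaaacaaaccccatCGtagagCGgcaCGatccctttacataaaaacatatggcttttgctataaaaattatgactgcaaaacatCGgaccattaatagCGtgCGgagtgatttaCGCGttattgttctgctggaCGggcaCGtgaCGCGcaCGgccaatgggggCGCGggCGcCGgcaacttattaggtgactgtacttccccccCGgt
HOXA10, chr7:27179862-27180111, minus strand: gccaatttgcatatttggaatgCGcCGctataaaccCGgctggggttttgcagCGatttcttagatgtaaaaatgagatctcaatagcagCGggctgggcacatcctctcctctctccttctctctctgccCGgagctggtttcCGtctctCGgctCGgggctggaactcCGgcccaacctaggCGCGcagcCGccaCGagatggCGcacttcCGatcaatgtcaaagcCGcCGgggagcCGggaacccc
HOXA11, chr7:27185233-27185482, minus strand: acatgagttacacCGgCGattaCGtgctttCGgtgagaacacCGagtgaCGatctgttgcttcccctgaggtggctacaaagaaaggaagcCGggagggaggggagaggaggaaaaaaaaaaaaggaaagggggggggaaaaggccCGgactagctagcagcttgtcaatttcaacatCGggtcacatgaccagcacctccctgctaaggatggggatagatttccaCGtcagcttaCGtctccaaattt
HOXD11, chr2:176107030-176107279, plus strand: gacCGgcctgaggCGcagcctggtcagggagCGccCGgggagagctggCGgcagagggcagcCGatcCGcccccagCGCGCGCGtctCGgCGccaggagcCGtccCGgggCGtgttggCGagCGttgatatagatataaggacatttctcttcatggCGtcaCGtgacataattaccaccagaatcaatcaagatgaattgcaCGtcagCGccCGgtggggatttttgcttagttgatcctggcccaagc
HOXD13, chr2:176092471-176092720, plus strand: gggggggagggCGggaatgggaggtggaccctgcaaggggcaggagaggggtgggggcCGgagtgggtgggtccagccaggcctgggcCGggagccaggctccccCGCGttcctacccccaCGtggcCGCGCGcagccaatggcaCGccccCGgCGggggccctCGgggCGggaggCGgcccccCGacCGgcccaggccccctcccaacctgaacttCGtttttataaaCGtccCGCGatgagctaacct
The next 2 sequences serve as comparison, HOXA13 because it was expressed and did not pass the test, and HOXB1 because it was all but silent.
HOXA13, chr7:27200092-27200341, minus strand: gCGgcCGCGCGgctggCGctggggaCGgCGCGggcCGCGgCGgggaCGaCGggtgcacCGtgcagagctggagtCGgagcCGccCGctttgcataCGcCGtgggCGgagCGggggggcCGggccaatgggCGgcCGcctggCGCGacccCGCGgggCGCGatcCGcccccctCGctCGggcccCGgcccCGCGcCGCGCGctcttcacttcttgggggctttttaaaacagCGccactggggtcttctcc
HOXB1, chr17:48531012-48531261, minus strand: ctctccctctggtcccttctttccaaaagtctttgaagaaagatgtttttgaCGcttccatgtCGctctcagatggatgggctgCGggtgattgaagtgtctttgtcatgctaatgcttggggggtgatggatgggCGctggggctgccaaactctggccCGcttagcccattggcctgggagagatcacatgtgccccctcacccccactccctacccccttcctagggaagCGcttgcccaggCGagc
The HOXA13 window held 40 CG dinucleotides and the HOXB1 window 7, while the 5 others held between 11 and 23. The median was 20.5 over the 20 HOX windows and 10 over the windows of 27305 genes. Searched on both strands, TATAAA was in 4 of 20 HOX windows, among them HOXA9, HOXA10 and HOXD13, and in 11.2% of all windows. CACGTG, an E-box, was in 7 of 20 and in 6.46% of all windows. TGATNNAT, a HOX and PBX motif, was in 3 of 20, among them HOXD11 and HOXB1, and in 6.73% of all, and GGGCGG in 10 of 20 and 42.2% of all. Of members that fell in starved control cells 7 had a window, with a median of 20 CG dinucleotides and CACGTG in 3. Of tested members that did not pass 12 had a window, with a median of 22 and CACGTG in 4. HOXC4 and HOXC5 have the same window and are each counted.

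In HDGF-depleted cells, starvation lowered 8 of the 38 HOX genes and raised 0, by edgeR at an adjusted p under 0.05. The background was 3.54% of tested genes called, 1.45% lower and 2.09% higher. HDGF is a chromatin-binding growth factor of the PWWP family. Genes that fell included HOXA9, HOXA10, HOXA11, HOXB2, HOXB6, HOXD11 and HOXD13, each of which also fell in starved control cells, and the HOX median was -0.25. The comparisons in control and in HDGF-depleted cells share no libraries.

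HOXA10 had 66.6 and 68.2 CPM in starved and 94.1 and 90.9 CPM in unstarved HDGF-depleted cells, a log2 fold change of -0.46 ± 0.08 (edgeR, adjusted p = 0.00161). HOXD13 had 56.5 and 57.8 CPM in starved and 81.9 and 81.4 CPM in unstarved HDGF-depleted cells, or -0.52 ± 0.09 on the log2 scale (edgeR, adjusted p = 0.00161). HOXA11 had 30.0 and 26.9 CPM in starved and 48.5 and 44.4 CPM in unstarved HDGF-depleted cells, or -0.71 ± 0.12 (edgeR, adjusted p = 0.00161). In each the pairs were far apart compared with the gap within a pair. HOXA9 had 53.0 and 54.3 CPM in starved and 83.5 and 77.2 CPM in unstarved HDGF-depleted cells. HOXB2 had 7.15 and 6.30 CPM in starved and 10.9 and 11.1 CPM in unstarved HDGF-depleted cells. HOXB6 had 38.7 and 37.3 CPM in starved and 55.6 and 51.2 CPM in unstarved HDGF-depleted cells. For these 3 too the groups did not overlap. Starved HDGF-depleted libraries lay entirely below unstarved ones for 25 of 38 members and entirely above for 0, where 27.8% and 28.2% of tested genes did. HOXD11 had 14.7 and 15.7 CPM in starved and 22.2 and 19.2 CPM in unstarved HDGF-depleted cells.

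In INTS13-depleted cells, 0 HOX genes were called under starvation by edgeR. The background by edgeR was 1.32% of tested genes called, 0.467% lower and 0.856% higher. At an unadjusted p under 0.05 there were 12 of 38 members, and 2408 of 19275 tested genes. DESeq2 called 2 HOX genes, among them HOXC11, where it called 302 tested genes higher and 173 lower. The HOX median was -0.22, and 34 of 38 members were below 0. HOXD13 had 56.2 and 54.5 CPM in starved and 61.5 and 60.3 CPM in unstarved INTS13-depleted cells, or -0.14 ± 0.09 (edgeR, adjusted p = 0.568). HOXB2 had 7.43 and 7.67 CPM in starved and 8.21 and 10.4 CPM in unstarved INTS13-depleted cells, or -0.30 ± 0.16 (edgeR, adjusted p = 0.448).

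The 14 genes that fell in starved control cells had negative values with INTS13 depleted and with HDGF depleted as well, 14 of 14 in each. The difference between starvation responses was tested as an interaction, in which 0 HOX genes were called for INTS13 and 0 for HDGF. By edgeR's unadjusted p, 7 and 2 members were under 0.05, where 1103 and 909 of 19275 tested genes were. The lowest adjusted p of HOX genes by edgeR were 0.453 and 0.922. Over all tested genes, 0.0156% and 0.0% were called. With the second set fitted alone, 2 HOX genes were called for the INTS13 interaction and 0 for HDGF. That fit called 208 of 18665 tested genes higher and 99 lower for INTS13, and 26 and 15 for HDGF. The 2 HOX genes were HOXD13 at 0.37 (edgeR, adjusted p = 0.0159) and HOXA10 at 0.29 (edgeR, adjusted p = 0.0369). The 8 calls of starvation in HDGF-depleted cells were 3 without HDGF library 3, 6 without HDGF library 4, 4 without starved HDGF library 3 and 2 without starved HDGF library 4.

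INTS13 depletion in unstarved cells moved 8 of 38 HOX genes, 4 up and 4 down, with no common direction. The background was 12.8% of tested genes called, 6.53% higher and 6.23% lower. HOXA5, HOXA9, HOXC9 and HOXD13 fell, and HOXA7, HOXB5, HOXB13 and HOXD12 rose. The HOX median was 0.00 against 0.01 over all genes.

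HOXD13 had 61.5 and 60.3 CPM in INTS13-depleted cells, against 83.1, 77.7, 79.8 and 84.8 CPM in controls. All INTS13 values lay well under all control values. The log2 fold change was -0.42 ± 0.08 (edgeR, adjusted p = 0.000551), and it kept its call under each of the 8 other settings and with each of the 6 libraries left out. HOXC9 had 15.1 and 16.4 CPM in INTS13-depleted cells, against 29.3, 21.8, 19.9 and 21.9 CPM in controls, a log2 fold change of -0.56 ± 0.14 (edgeR, adjusted p = 0.00897). HOXA9 had 57.0 and 58.5 CPM in INTS13-depleted cells, against 73.6, 74.5, 79.7 and 70.7 CPM in controls (-0.37 ± 0.11; edgeR, adjusted p = 0.0212). HOXA5 had 58.8 and 56.2 CPM in INTS13-depleted cells, against 77.7, 67.0, 67.4 and 71.6 CPM in controls (-0.30 ± 0.09; edgeR, adjusted p = 0.0219). The groups did not overlap in any of the 3. The INTS13 libraries lay entirely below the controls for 8 of 38 members and entirely above for 8, where 22.6% and 22.7% of tested genes did.

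Of the genes that rose, HOXB13 had 21.1 and 19.0 CPM in INTS13-depleted cells, against 16.5, 12.6, 14.3 and 16.3 CPM in controls (0.42 ± 0.13; edgeR, adjusted p = 0.0254). HOXA7 had 11.2 and 10.3 CPM in INTS13-depleted cells, against 8.45, 7.10, 7.69 and 6.98 CPM in controls (0.50 ± 0.15; edgeR, adjusted p = 0.0294). HOXB5 had 6.75 and 5.51 CPM in INTS13-depleted cells, against 4.48, 3.29, 3.21 and 4.36 CPM in controls (0.67 ± 0.21; edgeR, adjusted p = 0.0311). These are moderate shifts in genes of low to middling level. HOXD12 rested on few reads, 18 and 12 in INTS13-depleted cells against 6, 2, 6 and 2 in controls (log2 fold change 1.82 ± 0.52; edgeR, adjusted p = 0.0186).

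The choice of control mattered for several of these. Against the 2 controls labelled for ZMYND8, which are from another set, 11 HOX genes were called, 3 of them among the 8. In that comparison 1403 of 19275 tested genes were called higher and 1316 lower. HOXA5, HOXA9 and HOXB13 turned to 0.22, 0.22 and -0.028. Those controls had 49.5 and 49.5 CPM of HOXA9, 52.2 and 46.5 CPM of HOXA5, and 20.3 and 20.6 CPM of HOXB13. Without INTS13 library 3 or 4 the count was 1, HOXD13 each time, and it was 4 without control 3b and 5 without control 4a.

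In starved cells, INTS13 depletion raised HOXA10, HOXB2 and HOXD11 and lowered 0 HOX genes, with a background of 3.86% of tested genes called, 2.32% higher and 1.54% lower. HOXA10 had 71.4 and 70.8 CPM in starved INTS13-depleted cells, against 57.6, 58.0, 59.7 and 56.1 CPM in starved controls (log2 fold change 0.30 ± 0.07; edgeR, adjusted p = 0.0108). HOXB2 had 7.43 and 7.67 CPM in starved INTS13-depleted cells, against 4.32, 5.04, 5.54 and 4.67 CPM in starved controls (0.62 ± 0.14; edgeR, adjusted p = 0.00906). HOXD11 had 16 and 17.4 CPM in starved INTS13-depleted cells, against 12, 13.2, 14.2 and 13.9 CPM in starved controls (0.32 ± 0.09; edgeR, adjusted p = 0.0495). All 3 lay above every starved control, though the share of all tested genes that did so is not given here. In unstarved cells the log2 fold changes of HOXA10, HOXB2 and HOXD11 upon INTS13 depletion were 0.02 ± 0.07, 0.00 ± 0.13 and 0.11 ± 0.09. The difference between starved and unstarved cells, tested as the interaction, did not pass for any of the 3, at 0.28 for HOXA10 (edgeR, adjusted p = 0.625), 0.62 for HOXB2 (edgeR, adjusted p = 0.490) and 0.22 for HOXD11 (edgeR, adjusted p = 0.951). Without either starved INTS13 library 0 of the 3 were called. HOXD13 did not pass the test in starved cells, at -0.05 ± 0.08 (edgeR, adjusted p = 0.815).

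HDGF depletion in unstarved cells changed 5 of 38 HOX genes, and the 3 that fell were all in HOXC. The background was 4.49% of tested genes called, 1.89% higher and 2.60% lower. HOXC10 had 10.6 and 8.63 CPM in HDGF-depleted cells, against 16.4, 15.9, 13.1 and 17.3 CPM in controls, a log2 fold change of -0.70 ± 0.13 (edgeR, adjusted p = 0.00144). HOXC8, of thoracic patterning, had 5.46 and 5.04 CPM in HDGF-depleted cells, against 7.84, 7.29, 8.34 and 7.91 CPM in controls (-0.58 ± 0.17; edgeR, adjusted p = 0.0445). HOXC11 had 9.75 and 10.4 CPM in HDGF-depleted cells, against 14, 12.9, 13.1 and 13.5 CPM in controls (-0.41 ± 0.11; edgeR, adjusted p = 0.0340). None of the 3 overlapped with the controls. The HDGF libraries lay entirely below the controls for 10 of 38 members and entirely above for 12, where 17.7% and 16.5% of tested genes did. The median log2 fold change was -0.37 over the 9 HOXC genes, and 0.11, 0.21 and 0.06 over the tested HOXA, HOXB and HOXD genes, with no test of the difference.

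The 2 genes that rose upon HDGF depletion were HOXA5 and HOXB8, an anterior trunk gene known in myeloid cells. HOXA5 had 93.7 and 81.2 CPM in HDGF-depleted cells, against 77.7, 67.0, 67.4 and 71.6 CPM in controls (0.30 ± 0.09; edgeR, adjusted p = 0.0409). HOXB8 had 20.1 and 17.6 CPM in HDGF-depleted cells, against 14.5, 13.4, 13.1 and 13.9 CPM in controls (0.46 ± 0.13; edgeR, adjusted p = 0.0467). HOXC10 was called under all 8 other settings and was lost only without HDGF library 4, at -0.58 (edgeR, adjusted p = 0.0965). Leaving out a library brought the count of 5 to 2 without control 3a or 3b, 1 without control 4a, control 4b or HDGF library 3, and 0 without HDGF library 4. In starved cells 0 HOX genes were called upon HDGF depletion by edgeR, where 0.659% of tested genes were called, 0.265% higher and 0.394% lower. At an unadjusted p under 0.05 there were 5 of 38 members, and 2126 of 19275 tested genes. HOXC10 there had 9.32 and 8.55 CPM in starved HDGF-depleted cells, against 12.7, 11.2, 11.7 and 12.5 CPM in starved controls (-0.42 ± 0.13; edgeR, adjusted p = 0.162).

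**Figure D4:**
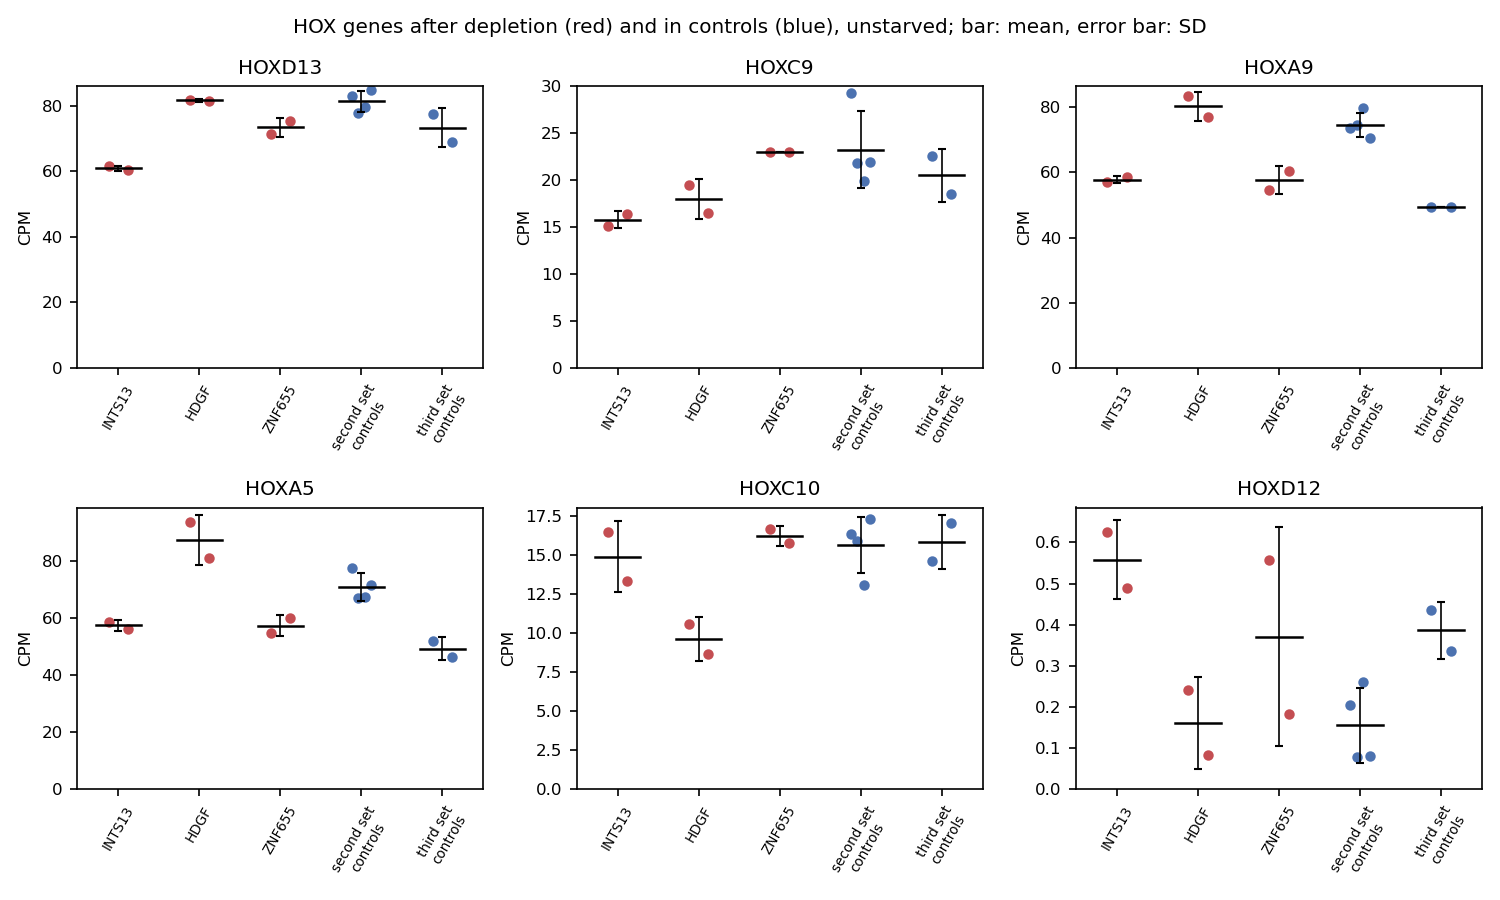
CPM per library for 6 HOX genes in unstarved cells depleted of INTS13, HDGF or ZNF655 (red) and in controls of the second and the third set (blue), with mean and SD. HOXD13 is lowest with INTS13 depleted and HOXC10 with HDGF depleted, while HOXA9 and HOXA5 in controls of the third set lie below those of the second.

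ZNF655 depletion, of a zinc finger protein, lowered HOXA5 and HOXA9, with a background of 11.5% of tested genes called, 6.57% higher and 4.88% lower. HOXA9 had 54.5 and 60.6 CPM in ZNF655-depleted cells, against 73.6, 74.5, 79.7 and 70.7 CPM in controls (-0.38 ± 0.11; edgeR, adjusted p = 0.0222). HOXA5 had 54.8 and 60.03 CPM in ZNF655-depleted cells, against 77.7, 67.0, 67.4 and 71.6 CPM in controls (-0.31 ± 0.09; edgeR, adjusted p = 0.0231). The controls labelled for ZMYND8 share the numbers of the ZNF655 libraries as well, and no label decides between the controls. Against them, both genes were 0.22 on the log2 scale, that is in the other direction. In that comparison 8 other HOX genes were called, where 995 of 19275 tested genes were called higher and 760 lower. Without ZNF655 library 3 the count of 2 was 0, and it was 1 without control 3a or 4a and 3 without control 3b. The INTS13, HDGF and ZNF655 comparisons and starvation of control cells share the same 4 unstarved controls.

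Depletions in the first set moved few HOX genes in the fit without the replicate number. In this set same-numbered libraries deviated together in 15 of 15 pairs of groups, which that fit ignores. Each depletion has libraries 1 and 2, against controls 1, 2a and 2b. The folds and p-values therefore carry part of the difference between numbers. TSPYL2 depletion, of a nucleosome assembly protein family member, raised HOXA3 and lowered HOXA9, with a background of 2.22% of tested genes called, 1.14% higher and 1.08% lower. HOXA3 had 6.2 and 7.56 CPM in TSPYL2-depleted cells, against 3.63, 4.62 and 4.71 CPM in controls (0.66 ± 0.16; edgeR, adjusted p = 0.0337). HOXA9 had 27.0 and 32.8 CPM in TSPYL2-depleted cells, against 39.0, 45.6 and 42.3 CPM in controls (-0.50 ± 0.11; edgeR, adjusted p = 0.0213). Neither gene overlapped with the controls, though the share of all tested genes apart in this way is not given here. With the replicate number as a block, 6 HOX genes were called over all libraries, where 1585 of 19275 tested genes were called higher and 2124 lower. The 6 were HOXA3 at 0.70, HOXA9 at -0.46, HOXA10 at -0.24, HOXA11 at -0.27, HOXD9 at 0.61 and HOXD10 at 0.37. With the block and the first set alone, only HOXA3 was called among HOX genes, at 0.72 (edgeR, adjusted p = 0.0443). There 27 of 18913 tested genes were called higher and 23 lower. Leaving out TSPYL2 library 2 or control 2a left 0 of the 2 calls, and leaving out TSPYL2 library 1 or control 1 left 1.

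ZNF609 depletion raised HOXB6, with 34.1 and 35.9 CPM in ZNF609-depleted cells, against 27.0, 25.4 and 27.6 CPM in controls (0.39 ± 0.09; edgeR, adjusted p = 0.0336). The background was 0.571% of tested genes called, 0.192% higher and 0.379% lower. The block over all libraries called 3 HOX genes, HOXB6 at 0.39, HOXA5 at 0.38 and HOXA10 at 0.26. It called 160 of 19275 tested genes higher and 303 lower. The block within the first set called 0 HOX genes, and 20 of 18913 tested genes higher and 16 lower. HOXB6 was lost without either ZNF609 library, control 2a or control 2b, and without control 1 the count was 2.

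For ZEB1, a repressor of epithelial genes, and for ZNF608 and ZNF687, zinc finger proteins, 0 HOX genes were called by edgeR. At an unadjusted p under 0.05 there were 5, 7 and 6 of 38 members, and 4255, 2785 and 1751 of 19275 tested genes. The background for ZEB1 was 3.77% of tested genes called, 1.78% higher and 1.99% lower. It was 2.76% for ZNF608, 1.08% higher and 1.68% lower, and 0.254% for ZNF687, 0.0674% higher and 0.187% lower. DESeq2 called 2 HOX genes upon ZEB1 depletion, 4 upon ZNF608 depletion and 0 upon ZNF687 depletion. Of 19275 tested genes it called 529 higher and 600 lower, 310 and 559, and 35 and 137, in the same order. With the replicate number as a block over all libraries, ZEB1 depletion called HOXB6 at 0.29, HOXD11 at 0.36 and HOXB8 at -0.35. The same block called HOXA3, HOXA5, HOXA9 and HOXA10 as higher, at 0.26 to 0.58, and HOXC10 as lower at -0.44 upon ZNF608 depletion, and HOXA9 at 0.29 upon ZNF687 depletion. Of 19275 tested genes this block called 1510 higher and 1258 lower for ZEB1, 800 and 966 for ZNF608, and 83 and 186 for ZNF687. Within the first set alone the block called 0, 1 and 0 HOX genes. Of 18913 tested genes it called 147 higher and 175 lower, 144 and 189, and 1 and 6.

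The ZEB1 count depended on single libraries, being 12 without ZEB1 library 2 and 5 without control 1. Both fits set libraries against each other that are more unequal in number than with all libraries kept. Whether the difference between numbers accounts for these counts was not tested. HOXA13 had 18.5 CPM in ZEB1 library 1 and 24.9 CPM in control 1, and 40.6 CPM in ZEB1 library 2, against 41.7 and 39.9 CPM in controls 2a and 2b. For ZNF608 the count was 1 without control 1. ZMYND8 depletion, of a chromatin reader, called 0 HOX genes by edgeR and 0 by DESeq2. The background by edgeR was 0.747% of tested genes called, 0.446% higher and 0.301% lower. At an unadjusted p under 0.05 by edgeR there were 5 of 38 members, and 1855 of 19275 tested genes. The block with the third set alone called 2, HOXA7 at 0.42 and HOXA6 at -0.30, where 1205 of 16564 tested genes were called higher and 1152 lower.

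Over the 16 comparisons, 21 HOX genes were called at least once and 17 in none. The share of all tested genes called at least once is not given here, and single comparisons called up to 16.8% of them. Without that share the count is only a tally, and whether it is particular to HOX genes was not tested. The 43 calls fell on 7 HOXA, 6 HOXB, 5 HOXC and 3 HOXD genes. HOXA9 was called most often, in 5 comparisons and as lower each time. Of these, starvation of control cells and INTS13 and ZNF655 depletion share the same 4 unstarved controls, and against the controls labelled for ZMYND8 both depletions gave 0.22, as stated above. By Pearson correlation of log2 CPM over the 15 group means, the genes most like HOXA9 were RNASEK at 0.93, HOXA10 at 0.90, ACTR8 and DKC1 at 0.89 each and SPAG5 at 0.89. The group means share the differences between sets.

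Other genes of the pathway were counted in the same fit. Of noncoding RNAs of the HOX clusters 17 were tested, and in starved control cells 8 fell and 0 rose, with a median of -0.41, where 8.05% of all tested genes were called lower and 8.77% higher. HOXA-AS2 averaged 3.09 ± 0.395 CPM in starved and 5.79 ± 0.716 in unstarved control cells (log2 fold change -0.91 ± 0.15; edgeR, adjusted p = 9.06e-05). HOXA11-AS averaged 3.97 ± 0.229 CPM in starved and 6.40 ± 0.561 in unstarved control cells (-0.69 ± 0.12; edgeR, adjusted p = 0.000213). HOTAIRM1, a noncoding RNA of the HOXA cluster, fell by 0.54 ± 0.12. HOXA11-AS overlaps HOXA11, and without a stated strand setting their reads cannot be told apart. Upon INTS13 depletion 4 of the 17 fell, where 6.23% of all tested genes did, with HOXB-AS3 at -1.32 ± 0.29.

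Of 16 tested genes of retinoic acid handling and caudal factors, 7 fell and 0 rose in starved control cells, with a median of -0.37 and the same background of 8.05% lower and 8.77% higher. ALDH1A2, which makes retinoic acid, averaged 41.1 ± 1.46 CPM in starved and 73.2 ± 5.95 in unstarved control cells (-0.83 ± 0.10; edgeR, adjusted p = 1.46e-06). DHRS3, which lowers retinal and is itself induced by retinoic acid, averaged 7.96 ± 0.413 CPM in starved and 15.4 ± 1.62 in unstarved control cells (-0.96 ± 0.11; edgeR, adjusted p = 1.38e-06). Upon INTS13 depletion 3 rose and 1 fell, where 6.53% of all tested genes rose and 6.23% fell, with the retinoic acid synthase ALDH1A3 at 1.39 ± 0.18 and the retinoic acid carrier CRABP2 at 0.85 ± 0.15. Of 10 HOX cofactors, 2 fell and 1 rose in starved control cells, with MEIS2 at -0.49 ± 0.09 and PBX3 at -0.31 ± 0.06. ZNF655 depletion raised 3 and lowered 0 cofactors, where 6.57% of all tested genes rose and 4.88% fell, with MEIS1 at 0.44 ± 0.08 and MEIS3 at 0.75 ± 0.15. The 16 tested genes flanking the clusters gave 1 rise and 1 fall, SNX11 at -0.61 ± 0.11, in starved control cells, with a median of 0.08, where 16.8% of all tested genes were called in either direction.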

How the data were processed

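The authors deposited raw read counts per gene, taken before duplicate removal per the file name, in 1 table of 60665 genes and 35 libraries. FastQC, cutadapt and STAR on hg38 are named by the submitters' processing notes, without versions. The counting tool, annotation release and strand setting are not given in the sources used here. Duplicates and the strand setting could change the level of overlapping genes.

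Members, lists and tests were chosen with earlier results of these data known. Libraries were grouped by their labels. For 3 controls of the first set, descriptions (1, 2a, 2b) and titles (1a, 1b, 2) disagree in numbering, and descriptions were used. Genes passing filterByExpr by group (19275) were scaled by TMM and fitted with edgeR 4.0.16 in R 4.3.3, as 15 group means over all libraries, with a quasi-likelihood test per contrast, Benjamini-Hochberg adjustment over all tested genes and a threshold of 0.05. The fit had 20 residual degrees of freedom. CPM are counts per 1000000 of the TMM-scaled library, and the log2 fold change and SE are edgeR's, with SE taken from the F statistic. Genes were compared per kb of the exon length in the table. The fit was tested on simulated data.

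Numbers pair the first set: same-numbered libraries deviated together in 15 of 15 pairs of groups (median correlation 0.75, lowest 0.42, over 11536 genes), against 6 of 21 pairs in the second set, and 1 pair at 0.11 in the third. Alternatives were DESeq2 1.42.0 size factors, DESeq2's Wald test, no filter, the replicate block, each set alone, summed controls of a shared number, the controls labelled for ZMYND8 and leaving out each library.

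Members called in any comparison, and the 2 highest per kb in each cluster, are named with values, except 1 member that is not reported here, and from each other list at most 4 genes with the lowest adjusted p. Total counts of 16.8 to 50.8 M limit what can be seen under about 1 CPM.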

Additional observations from a re-analysis of the deposited data

Results flagged for a closer look

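In the groups of 4 libraries, starved and unstarved controls of the second set, 4 of 74 HOX gene and group combinations had 1 library far from the other 3, with a gap, over the group's range, above Dixon's 95% critical value. Chance alone gives about 1 in 20. HOXB4 had 6.25 CPM in starved control 4b, against 5.91 to 5.93 CPM in the others. HOXC4 had 17.1 CPM in unstarved control 3b, against 20.7 to 21.2 CPM. HOXA13 had 40.4 CPM in unstarved control 3a, against 35.4 to 36.0 CPM. HOXD8 had 8.07 CPM in unstarved control 4b, against 6.64 to 6.82 CPM.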

How the results depend on the processing

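The 34 members at 1 CPM or more in control cells stayed 34 with each of 9 libraries left out. Of 43 calls, 11 were kept under every setting and 14 with every library left out; gene by gene, 429 of 583 alternative values kept their direction and call, 149 kept the direction and lost the call, and 5 reversed. Against the controls labelled for ZMYND8, HOXA5 and HOXA9 upon INTS13 depletion turned to 0.22 and 0.22, HOXB13 to -0.028, and HOXA5 and HOXA9 upon ZNF655 depletion to 0.22 and 0.22; controls of the third set had less HOXA5 and HOXA9 than those of the second. For other lists, 454 of 690 counts stayed within 1.5 times. Causes of the moves below were not tested, except that fewer libraries enter where controls are summed or 1 is left out.

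Counts of HOX genes called, which moved by over 1.5 times, were as follows. Counts over all tested genes moved with these settings too and are given for some, so a move is not by itself particular to HOX genes. INTS13 depletion (8) gave 4 with no filter and 2 with summed controls. HDGF depletion (5) gave 1 with no filter, 1 with summed controls, 10 with the replicate block, 14 with its own set alone, 13 with both and 15 against the controls labelled for ZMYND8. Over all 19275 tested genes, HDGF depletion called 364 higher and 502 lower in the fit reported above, and 807 and 1062 with the block. It called 1219 and 1314 against the controls labelled for ZMYND8, and 1276 and 1705 of 18665 with its own set. ZNF655 depletion (2) gave 6 with the block, 10 with its own set, 10 with both, 1 with summed controls and 8 against the controls labelled for ZMYND8. Over all 19275 tested genes, ZNF655 depletion called 1267 higher and 941 lower in the fit reported above, and 2089 and 2057 with the block. It called 2535 and 2978 of 18665 with its own set. ZMYND8 depletion (0) gave 2 with its own set and the block. TSPYL2 depletion (2) gave 6 with the block, 0 with its own set, 1 with both and 0 with summed controls. ZEB1 depletion (0) gave 2 with DESeq2 size factors, 2 with DESeq2's test and 3 with the block. ZNF608 depletion (0) gave 4 with DESeq2's test, 5 with the block and 1 with the block and own set. ZNF609 depletion (1) gave 3 with DESeq2's test, 3 with the block, and 0 with no filter, its own set, both, or summed controls. ZNF687 depletion (0) gave 1 with the block.

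Starvation of control cells (14) gave 9 with summed controls. With summed controls, 436 of 19499 tested genes were called higher and 424 lower, against 1691 and 1552 of 19275 in the fit reported above. Starvation of INTS13-depleted cells (0) gave 1 with no filter, 2 with DESeq2's test, 6 with the block, 8 with its own set and 7 with both. Over all 19275 tested genes it called 165 higher and 90 lower in the fit reported above, and 681 and 445 with the block. With its own set it called 1381 and 990 of 18665. Starvation of HDGF-depleted cells (8) gave 5 with no filter, 13 with its own set and 13 with both. INTS13 depletion in starved cells (3) gave 1 with no filter, 5 with the block, 8 with its own set, 7 with both and 1 with summed controls. HDGF depletion in starved cells (0) gave 4 with its own set and 4 with both, and the INTS13 interaction (0) gave 2 and 2. With the second set alone, 18665 genes were tested. Starvation of HDGF-depleted cells then called 1625 higher and 1545 lower. INTS13 depletion in starved cells called 1556 and 1491, HDGF depletion in starved cells 679 and 781, and the INTS13 interaction 208 and 99.

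Leaving out 1 library gave 1 to 7 for INTS13 depletion, 0 to 2 for HDGF, 0 to 3 for ZNF655, 0 to 2 for TSPYL2, 0 to 12 for ZEB1, 0 to 1 for ZNF608, 0 to 2 for ZNF609, and 0 for ZMYND8 and ZNF687. It gave 11 to 13 for starvation of control cells, 2 to 6 for HDGF-depleted and 0 for INTS13-depleted cells, 0 to 3 for INTS13 and 0 for HDGF depletion in starved cells, and 0 for both interactions. Where that leaves 1 library, it is assumed to vary like the other groups. Depth limits the 5 members under 1 CPM, whose log2 fold changes rest on few reads.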

Other observations

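Over all tested genes, 8.77% were called higher and 8.05% lower in starved control cells, 6.53% and 6.23% upon INTS13 depletion, and 6.57% and 4.88% upon ZNF655 depletion. Of 29 Polycomb genes, which silence HOX genes, 3 rose and 3 fell in starved control cells, where the methyltransferase EZH2 averaged 116 ± 3.76 CPM in starved and 142 ± 8.33 CPM in unstarved cells (log2 fold change -0.29 ± 0.06; edgeR, adjusted p = 0.000910). Upon INTS13 depletion 2 rose and 4 fell, with the histone chaperone RBBP7 at 0.60 ± 0.09 and the ubiquitin ligase RING1 at -0.72 ± 0.11. Upon ZNF655 depletion 2 rose and 3 fell, with SUZ12, a core subunit of the methyltransferase complex, at -0.59 ± 0.11.

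Of 21 MLL and trithorax genes, 2 fell and 0 rose in starved control cells, with PAXIP1 at -0.24 ± 0.07. Upon INTS13 depletion 3 fell, with the elongation factor AFF4 at -0.57 ± 0.13, and upon ZNF655 depletion 2 fell, with WDR5 at -0.35 ± 0.08. KMT2D, a methyltransferase, rose upon TSPYL2 depletion by 1.27 ± 0.25, but its libraries differed widely, at 94.8 ± 57.6 CPM in TSPYL2-depleted cells and 39.2 ± 7.31 CPM in controls (SD, n = 2 and n = 3).

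Of the genes flanking the clusters, SNX10 near HOXA fell upon HDGF depletion, at 5.13 ± 0.0465 CPM in HDGF-depleted cells and 14.5 ± 1.06 CPM in controls (log2 fold change -1.50 ± 0.15; edgeR, adjusted p = 1.80e-07), and CALCOCO1 beside HOXC fell by 0.35 ± 0.09. CBX1 near HOXB, a heterochromatin protein, fell upon ZNF608 depletion by 0.70 ± 0.07.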
